A study of Mus musculus with 30 samples.

Results

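Expression of the genes for blood coagulation and complement proteins was examined in livers of wild-type mice and of mice lacking the transcription factors PPARα, CREB3L3, or both. The genes were taken from a list of 40 plasma proteins or close relatives of them, each on the probe set that the probe-to-gene table gives exactly 1 symbol and that had the highest mean over all 30 arrays. Of the 40 genes, 36 had such a probe set, out of 18820 genes in all. Klkb1 and Masp2 share their probe set with another gene, and C3 and Cpb2 have no entry in that table, so these 4 genes have no value here. Every array held the liver RNA of a single male mouse of about 8 weeks on a C57BL/6 background. Mice of 4 lines, wild-type, PPARα-/-, CREB3L3-/-, and the double knockout PPARα/CREB3L3-/-, went without food for 16 hours after chow, or ate a ketogenic diet, rich in fat and very low in carbohydrate, for 4 days with no fast. Each group held 4 mice, except both PPARα-/- groups with 3. Both deletions are present in every tissue, the Ppara allele is a partial deletion, and the double knockout came from interbreeding the single lines. The comparison asks whether the factors act alone or together on this set of secreted proteins, in the fasted state and on the diet.

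Coagulation turns soluble fibrinogen into fibrin through a chain of proteases, held in check by protease inhibitors and undone by plasmin. Complement marks and lyses microbes through the lectin, classical and alternative pathways, which meet at C3 and end in a pore built from C5 to C9. Hepatocytes make most of these proteins and secrete them through the endoplasmic reticulum. CREB3L3, also known as CREBH, is a liver transcription factor tethered in that membrane until it is cut free, and PPARα is the nuclear receptor that drives fatty acid oxidation when fat is the main fuel. In whole liver, fewer hepatocytes and less RNA per hepatocyte cannot be told apart in the values below.

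Values are on the log2 scale of RMA (robust multi-array average) expression, so that a difference of 1 is a doubling. Array medians lay between 4.22 and 4.38. Creb3l3 itself read 4.29 to 5.36 in all mice lacking it and 9.49 to 11.3 in all others, as the labels give the genotypes. Ppara keeps part of its transcript and separated the genotypes within each regimen only. In the fasted state it read 7.25 to 9.35 in mice lacking PPARα and 9.51 to 10.41 in the others. On the diet it read 6.62 to 7.95 in mice lacking PPARα, 8.01 to 8.99 in CREB3L3-/- and 10.37 to 10.54 in wild-type mice. CREB3L3-/- mice on the diet thus also had less Ppara than wild-type. The 36 genes varied little among mice of a group, with a median SD between 0.07 and 0.17 in 7 of the 8 groups. In CREB3L3-/- mice on the ketogenic diet the median SD was 0.57. In that group the array of replicate 1 was the highest of the 4 for 27 of 36 genes and that of replicate 2 the lowest for 22. A gene was called at an unadjusted P under 0.001 with a change beyond 1.2-fold in a limma fit over all 30 arrays, with p-values adjusted by the Benjamini-Hochberg method across the 35556 probe sets on the array.

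In the fasted state the coagulation and complement genes differed little from wild-type in all 3 knockout lines. In PPARα-/- mice 1 of 36 genes was higher, against 3.11% of all genes, and the median difference over the 36 was 0.09. The gene was Masp1, a serine protease that starts the lectin pathway, which read 10.40, 10.34, 10.50 and 10.22 in wild-type and 10.85, 10.76 and 10.92 in PPARα-/- livers. These ranges did not overlap, and the difference was 0.48 ± 0.10 (SE; adjusted p = 0.003). In CREB3L3-/- mice limma called 0 of 36 genes, against 1.54% of all genes in either direction, and 1 gene had an unadjusted p under 0.05. The double knockout had 3 higher genes, against 5.81% of all genes called higher.

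Those 3 genes were Masp1, C2 and F11. Masp1 read 10.97, 11.14, 11.09 and 10.71 in fasted PPARα/CREB3L3-/- livers, all above wild-type, a difference of 0.61 ± 0.09 (adjusted p = 3.6e-05). C2, which supplies the protease of the classical and lectin C3 convertase, read 8.36, 8.47, 8.45 and 8.49 in wild-type and 9.20, 9.20, 9.24 and 9.50 in the double knockout. The C2 ranges did not overlap either and differed by 0.84 ± 0.15 (adjusted p = 0.000352). F11, the zymogen that sustains thrombin formation through factor IX, ranged from 8.85 to 9.53 in wild-type and 9.45 to 10.08 in the double knockout, which overlapped, with a difference of 0.63 ± 0.15 (adjusted p = 0.00605) whose call was lost in 5 of 8 fits that each left out 1 array. Loss of CREB3L3 in mice already lacking PPARα changed 0 of 36 genes, against 2.41% of all genes, with 3 at an unadjusted p under 0.05 in limma. Loss of PPARα in mice lacking CREB3L3 raised C2 and Masp1, 2 genes, against 4.22% of all genes called higher, and the Masp1 call was lost in 6 of 8 such fits. The test of whether the combined change departed from the sum of the single changes called 0 of 36 in the fasted state, against 0.834% of all genes, and 0 had an unadjusted p under 0.05 in limma. With only the fasted arrays, 6 genes were called in PPARα-/- mice (4 higher, 2 lower) and 7 in double knockout mice (5 higher, 2 lower). In those fits 3.2% of all genes were higher and 2.74% lower in PPARα-/- mice, and 5.91% higher and 4.04% lower in double knockout mice.

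Wild-type mice themselves differed little between the regimens. Of the 36 genes, 0 were called between ketogenic and fasted wild-type livers in limma, against 5.23% of all genes, and 6 had an unadjusted p under 0.05. The median difference was 0.01. The lowest unadjusted p of the 36 belonged to Serpinf2, the plasmin inhibitor, with a difference of 0.23 ± 0.07 (adjusted p = 0.0474). C9, which forms the pore of the membrane attack complex, had a difference of -1.01 ± 0.33 (adjusted p = 0.0669).

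**Figure D1:**
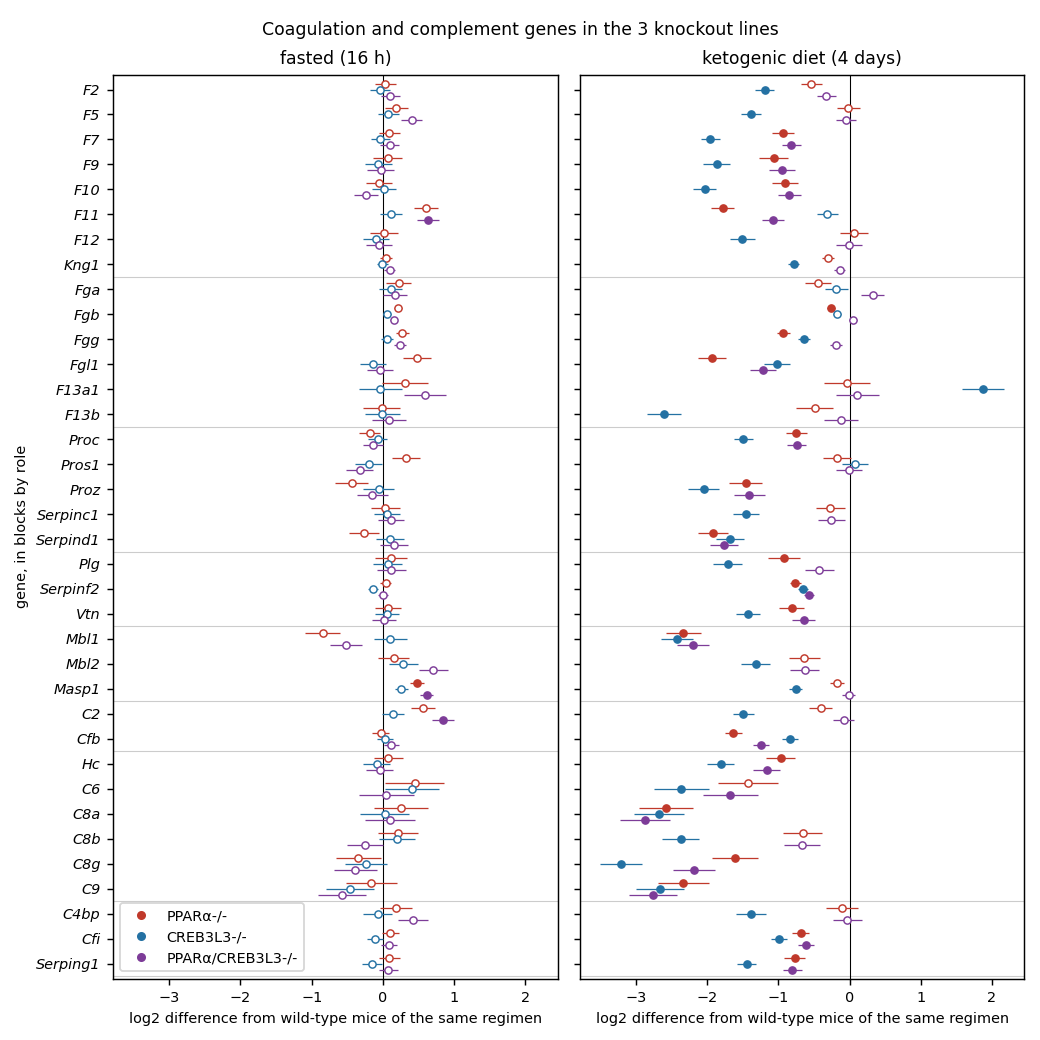
Log2 difference from wild-type mice of the same regimen (horizontal axis) for 36 coagulation and complement genes (rows, in blocks by role) in PPARα-/-, CREB3L3-/- and PPARα/CREB3L3-/- mice, fasted at left and on the ketogenic diet at right. Points are fitted differences with SE bars and are filled where the gene was called, which holds for 1, 0 and 3 genes in the fasted state and for 21, 32 and 19 genes on the diet.

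On the ketogenic diet every called gene except F13a1 was lower than in wild-type. In CREB3L3-/- livers 31 of 36 genes were lower, against 11.9% of all genes, and 1 was higher, against 16.7%. The median difference over the 36 was -1.45. In PPARα-/- livers 21 of 36 were lower, against 7.15% of all genes, with a median of -0.76. In PPARα/CREB3L3-/- livers 19 of 36 were lower, against 10.3% of all genes, with a median of -0.64. Among the 3378 genes with a mean of at least 8, which include 35 of the 36, the shares called lower were 34.3% in CREB3L3-/-, 19.1% in PPARα-/- and 24.4% in double knockout livers. The ranges of knockout and wild-type mice did not overlap for 31 of the 32 genes called in CREB3L3-/- livers, for all 21 called in PPARα-/- livers and for all 19 called in double knockout livers. Among all called genes the shares without overlap were 95.5%, 98.5% and 95.9% in these lines, so that this holds for called genes in general. With ketogenic arrays only, 13 genes were called in PPARα-/- livers, 32 in CREB3L3-/- livers and 15 in double knockout livers. All but F13a1 were lower, against 5.14%, 10.2% and 7.87% of all genes called lower in that fit. Without any 1 array of the groups compared the CREB3L3-/- count stayed at 32.

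Thrombin formation starts with tissue factor and factor VII. F7, the gene for that protease, read 9.87, 9.91, 9.88 and 10.06 in wild-type mice on the diet and 8.17, 8.01, 7.49 and 8.24 in CREB3L3-/- mice. Every CREB3L3-/- mouse lay below every other mouse on the diet for this gene. F7 was 3.87-fold lower than in wild-type, a log2 difference of -1.95 ± 0.14 (adjusted p = 1.67e-11). PPARα-/- mice read 8.77, 9.17 and 9.05 and the double knockout 9.24, 9.16, 8.86 and 9.18, differences of -0.93 and -0.82 that were both called. F10, whose protease cuts prothrombin, read 11.07 to 11.20 in wild-type and 8.50 to 9.86 in CREB3L3-/- mice, without overlap, and differed by -2.03 ± 0.16 (adjusted p = 1.85e-10). F10 differed by -0.91 in PPARα-/- and -0.85 in double knockout mice. F9, the factor missing in haemophilia B, differed by -1.87 in CREB3L3-/-, -1.06 in PPARα-/- and -0.95 in double knockout mice, all 3 called.

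Prothrombin itself, F2, was called in CREB3L3-/- livers alone, with 11.35, 10.30, 10.25 and 10.86 there and 11.83 to 11.93 in wild-type, a difference of -1.19. Its values in PPARα-/- mice (11.32 to 11.38) also lay below wild-type, with a difference of -0.54. That difference was not called over all arrays but was called with only the arrays of these groups. F5, the cofactor of factor Xa, read 10.75, 9.65, 9.52 and 9.85 in CREB3L3-/- mice against 11.41, 11.33, 11.36 and 11.19 in wild-type. PPARα-/- and double knockout mice, at 11.29 to 11.32 and 11.06 to 11.38, overlapped with wild-type for F5. The contact factors split in opposite ways. F12, which begins the contact pathway on charged surfaces, read 11.50, 11.50, 11.30 and 11.34 in wild-type, 10.80, 9.19, 9.58 and 10.06 in CREB3L3-/- and 11.58, 11.40 and 11.45 in PPARα-/- mice. Only the CREB3L3-/- range stood apart among the 4 lines, by -1.50 from wild-type. F11 showed the reverse, with 9.50, 9.66, 9.89 and 9.52 in wild-type, 8.19, 7.87 and 7.51 in PPARα-/-, 8.52, 8.76, 8.36 and 8.65 in double knockout and 9.18, 9.30, 9.42 and 9.43 in CREB3L3-/- mice. F11 was 3.44-fold lower in PPARα-/- mice, by -1.78 ± 0.16 (adjusted p = 5.69e-09), by -1.07 in the double knockout, also called, and by -0.31 in CREB3L3-/- mice, which was not called although the ranges did not overlap. Kng1, the kininogen that carries factor XI and prekallikrein, was called in CREB3L3-/- livers, with a difference of -0.78. Over the 8 genes of thrombin formation, 7 were lower in CREB3L3-/-, 4 in PPARα-/- and 4 in double knockout mice.

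Fibrinogen is built from 3 chains, and its genes Fgg, Fga and Fgb lie side by side with no protein-coding gene between them in the RefSeq annotation. Fgb read 12.88, 12.95, 12.88 and 12.98 in wild-type, 12.62, 12.64 and 12.71 in PPARα-/- and 12.53, 12.78, 12.86 and 12.80 in CREB3L3-/- livers. The PPARα-/- values lay below wild-type, a called difference of -0.26 whose call was lost in 4 of 7 fits without 1 array. The CREB3L3-/- difference of -0.18 was not called. Fgg read 12.61, 12.77, 12.70 and 12.73 in wild-type and 11.82, 11.77 and 11.72 in PPARα-/- livers. Fgg was 1.91-fold lower without PPARα, by -0.93 ± 0.09 (adjusted p = 1.33e-08), and differed by -0.63 in CREB3L3-/- mice, both called, and by -0.19 in the double knockout, which was not. Fga was called in none of the 3 lines, with differences of -0.44, -0.19 and 0.32 in PPARα-/-, CREB3L3-/- and double knockout livers. Fgl1, a fibrinogen-like protein that hepatocytes secrete, read 10.63, 9.55 and 10.01 in PPARα-/- against 12.10, 12.06, 11.93 and 11.88 in wild-type livers, without overlap. The difference was -1.93 ± 0.20 (adjusted p = 3.61e-08) in PPARα-/-, with -1.02 in CREB3L3-/- and -1.21 in double knockout mice, all called.

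Factor XIII cross-links fibrin, and its subunits come from different cells: the B subunit from hepatocytes and the A subunit mainly from macrophages and megakaryocytes. F13b, the carrier subunit, read 9.08, 9.25, 9.57 and 9.44 in wild-type and 7.70, 5.98, 5.97 and 7.29 in CREB3L3-/- mice on the diet. All 4 CREB3L3-/- values lay below every other array of the series for this gene, 6.08-fold under wild-type, by -2.60 ± 0.24 (adjusted p = 1.81e-09). PPARα-/- and double knockout mice, at 8.78 to 8.89 and 8.97 to 9.44, had differences of -0.49 and -0.12 that were not called. The PPARα-/- values still lay below every wild-type value on the diet, whereas those of the double knockout overlapped with wild-type. F13a1, the catalytic subunit, was the 1 gene that was higher in CREB3L3-/- livers, with 6.08, 5.48, 7.08 and 5.56 against 5.32, 3.99, 3.60 and 3.80 in wild-type. The lowest knockout value stood just above the highest wild-type one, which was replicate 1, and the measured difference was 1.87 ± 0.30 (adjusted p = 1.18e-05). Its mean in the other 7 groups, 3.80 to 4.42, lay near the array medians, where a signal is hard to tell from background, so the size of this difference is not exact. Of 12 macrophage markers, 7 were also higher in the same livers, against 16.7% of all genes. With only the arrays of the 2 groups the F13a1 call was lost.

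Among the 5 anticoagulants, 4 were lower in CREB3L3-/-, 3 in PPARα-/- and 3 in double knockout mice. Proc, the zymogen of activated protein C, read 10.78, 9.72, 9.74 and 10.19 in CREB3L3-/- and 11.48, 11.62, 11.63 and 11.67 in wild-type mice, without overlap, a difference of -1.49 ± 0.14 (adjusted p = 1.39e-09). It differed by -0.75 in PPARα-/- and -0.74 in double knockout livers. Proz, a cofactor in the inhibition of factor Xa, differed by -2.05, -1.46 and -1.41 in CREB3L3-/-, PPARα-/- and double knockout mice. Proz lies next to F10 and F7 in the annotation, and all 3 neighbours were called lower in all 3 lines. Serpinc1, antithrombin, read 11.60, 10.09, 10.22 and 11.14 in CREB3L3-/- and 12.16, 12.22, 12.25 and 12.24 in wild-type livers. Replicates 2 and 3 of CREB3L3-/- mice stood well below replicates 1 and 4, all were below wild-type, and the difference of -1.45 was called in this line and not in PPARα-/- (-0.27) or double knockout mice (-0.25). Serpind1, heparin cofactor II, showed nearly the same difference in each line, -1.68 in CREB3L3-/-, -1.92 in PPARα-/- and -1.77 ± 0.20 (adjusted p = 9.8e-08) in double knockout livers. Pros1, protein S, which endothelial cells and platelets also make, was called in none. Its ranges were 8.68 to 9.06 in wild-type and 8.55 to 9.28 in CREB3L3-/- mice. Of the 7 vitamin K-dependent genes measured, F2, F7, F9, F10, Proc, Pros1 and Proz, 6 were lower in CREB3L3-/-, 5 in PPARα-/- and 5 in double knockout mice.

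Of the 3 genes of fibrin removal and its control, 3 were lower in PPARα-/- and CREB3L3-/- mice and 2 in the double knockout. Plg, plasminogen, read 11.77, 10.11, 10.11 and 11.16 in CREB3L3-/- and 12.44, 12.50, 12.55 and 12.53 in wild-type livers, a difference of -1.71, with -0.92 in PPARα-/- mice, both called, and -0.42 in the double knockout, which was not. Serpinf2, which inhibits plasmin, was one of the genes with the lowest p in PPARα-/- livers, with 11.20, 11.19 and 11.08 against 11.89, 11.88, 11.98 and 11.91 in wild-type. These did not overlap and differed by -0.76 ± 0.08 (adjusted p = 1.87e-08). Serpinf2 differed by -0.65 in CREB3L3-/- and by -0.57 ± 0.07 (adjusted p = 4.58e-07) in double knockout mice. Vtn, vitronectin, which stabilises the plasminogen activator inhibitor and also blocks the complement pore, differed by -1.43, -0.81 and -0.65 in CREB3L3-/-, PPARα-/- and double knockout mice. All 3 were called. The call of Vtn in the double knockout was lost in 7 of the 8 fits that each left out 1 array, and that of Plg in PPARα-/- mice in 3 of 7.

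**Figure D2:**
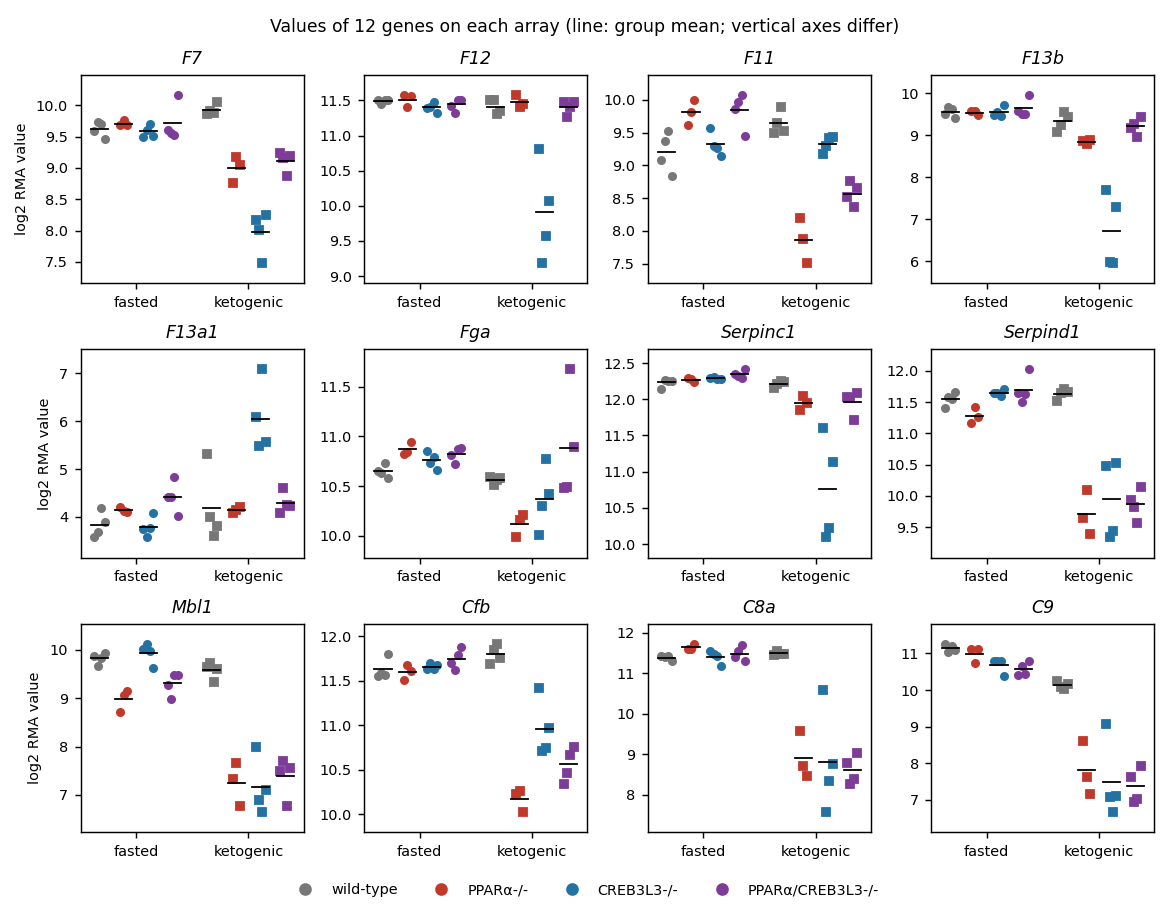
Log2 RMA value of 12 genes on each of the 30 arrays (vertical axes differ), with circles for fasted and squares for ketogenic mice, colours for the 4 lines and a line at each group mean. F12 stands low in ketogenic CREB3L3-/- mice alone. F13b is lowest in these mice and lies slightly below wild-type in ketogenic PPARα-/- mice. F11 stands low in ketogenic PPARα-/- and PPARα/CREB3L3-/- mice, and Serpind1, Mbl1, Cfb, C8a and C9 in all 3 knockout lines on the diet.

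The lectin pathway had 3 of 3 genes lower in CREB3L3-/- mice and 1 of 3 in each other line. Mbl1, a mannose-binding lectin that recognises microbial sugars, read 9.64, 9.73, 9.34 and 9.60 in wild-type, 7.32, 7.66 and 6.76 in PPARα-/-, 7.99, 6.89, 6.64 and 7.10 in CREB3L3-/- and 7.50, 7.70, 6.76 and 7.56 in double knockout mice. The 3 knockout lines overlapped with each other and not with wild-type. Their differences from it were -2.33 ± 0.24 (adjusted p = 5.21e-08), -2.42 ± 0.23 (adjusted p = 2.29e-09) and -2.20 ± 0.23 (adjusted p = 2.67e-08), in that order. Mbl1 in fasted PPARα-/- mice also read below wild-type, at 8.71, 9.07 and 9.16 against 9.87, 9.66, 9.83 and 9.95, a difference of -0.85 (adjusted p = 0.0379) that was not called. Its relative Mbl2 was called in CREB3L3-/- livers, by -1.32, and not in PPARα-/- (-0.64) or double knockout livers (-0.63). Masp1 was likewise called in CREB3L3-/- mice on the diet, at -0.76, and not in PPARα-/- (-0.17) or double knockout mice (-0.01). In the fasted state its difference was positive in all 3 lines, at 0.26 in CREB3L3-/-, 0.48 in PPARα-/- and 0.61 in double knockout mice.

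Cfb and C2 are adjacent genes for the proteases of the alternative and the classical C3 convertase, and they differed in their patterns. Cfb read 11.69, 11.84, 11.91 and 11.75 in wild-type, 10.23, 10.26 and 10.02 in PPARα-/-, 11.41, 10.71, 10.75 and 10.97 in CREB3L3-/- and 10.34, 10.47, 10.67 and 10.76 in double knockout mice. PPARα-/- mice were the lowest and all 3 lines lay below wild-type. The difference was -1.63 ± 0.12 (adjusted p = 9.69e-11) in PPARα-/-, -0.84 in CREB3L3-/- and -1.24 ± 0.11 (adjusted p = 1.76e-09) in double knockout livers. C2 read 7.72, 7.15, 6.49 and 7.04 in CREB3L3-/- and 8.47, 8.59, 8.66 and 8.65 in wild-type mice, a called difference of -1.49. In PPARα-/- and double knockout mice its differences of -0.41 and -0.08 were not called. The PPARα-/- values of C2, 7.86 to 8.37, still lay below every wild-type value, whereas those of the double knockout overlapped with wild-type.

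The terminal components had the lowest median difference of the 8 roles in each line. All 6 were lower in CREB3L3-/- mice, with a median difference of -2.51, 4 of 6 in PPARα-/- mice, with -1.52, and 5 of 6 in the double knockout, with -1.93. C8g, the small chain of C8, read 11.32, 11.46, 11.48 and 11.39 in wild-type and 9.81, 7.34, 7.69 and 7.97 in CREB3L3-/- livers. The values did not overlap and the fall was 9.24-fold, a log2 difference of -3.21 ± 0.30 (adjusted p = 1.85e-09), the largest of the 36. C8g differed by -1.61 in PPARα-/- and -2.19 in double knockout livers. C8a, the chain of C8 that inserts into the membrane, read 11.46, 11.56, 11.49 and 11.48 in wild-type, 9.57, 8.71 and 8.46 in PPARα-/-, 10.59, 7.58, 8.34 and 8.77 in CREB3L3-/- and 8.79, 8.28, 8.40 and 9.03 in double knockout mice. Replicate 1 of CREB3L3-/- mice stood above the other knockout arrays, and the differences were -2.58, -2.68 and -2.87 ± 0.35 (adjusted p = 4.15e-07). C8b, whose gene adjoins C8a, read 10.04, 7.99, 8.18 and 8.64 in CREB3L3-/- mice against 11.11, 11.17, 10.92 and 11.15 in wild-type. Its difference was -2.37 there, against -0.66 and -0.67 in the other lines. Over all arrays C8b was called in CREB3L3-/- mice alone, and with only the arrays of the groups compared in all 3 lines. C9 read 10.26, 10.10, 10.02 and 10.17 in wild-type and 7.62, 6.95, 7.01 and 7.93 in double knockout mice, without overlap, and differed by -2.76 ± 0.33 (adjusted p = 3.99e-07) there, -2.66 in CREB3L3-/- and -2.33 in PPARα-/- mice. Hc, the gene for C5, differed by -1.81, -0.96 and -1.16 in CREB3L3-/-, PPARα-/- and double knockout mice. C6, which binds C5b to begin the pore, ranged from 8.37 to 9.55 in wild-type and 5.85 to 8.47 in CREB3L3-/- mice, which overlapped, and was called with a difference of -2.36. In double knockout mice it differed by -1.67, a call lost without WT replicate 4 or without double knockout replicate 3.

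Of the 3 complement regulators, 3 were lower in CREB3L3-/- mice and 2 in each other line. Cfi, the protease that degrades C3b and C4b, differed by -0.99 in CREB3L3-/-, -0.69 in PPARα-/- and -0.61 in double knockout livers. Serping1, the C1 inhibitor that also restrains the contact pathway, differed by -1.44, -0.77 and -0.80 in the same lines. All of these were called. C4bp, which binds C4b as a cofactor for Cfi, read 11.02, 9.31, 9.42 and 10.19 in CREB3L3-/- and 11.20, 11.44, 11.41 and 11.43 in wild-type mice. Replicate 1 lay close to wild-type and replicates 2 and 3 far below, and the difference of -1.38 was called in this line alone.

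Across the 3 lines on the diet, 17 genes were called lower in all of them and 11 in CREB3L3-/- mice but in neither other line. The share of all genes in these joint classes is not given here, so the counts describe the 36 genes only. The 17 were C8a, C8g, C9, Cfb, Cfi, F10, F7, F9, Fgl1, Hc, Mbl1, Proc, Proz, Serpind1, Serpinf2, Serping1 and Vtn. The 11 were C2, C4bp, C8b, F12, F13b, F2, F5, Kng1, Masp1, Mbl2 and Serpinc1. These classes depend on the arrays in the fit. With only the arrays of the groups compared, 26 genes were lower in PPARα-/- mice, among them C8b, F2 and Kng1, against 5.47% of all genes. In that setting 21 were lower in double knockout mice, C8b among them, against 7.03%. In CREB3L3-/- mice 29 were lower, without C4bp, against 8.58%. When PPARα-/- mice were compared directly with CREB3L3-/- mice, 10 of the 11 were higher in PPARα-/- mice, the exception being Mbl2. The 11 were picked by their calls against wild-type on the same arrays, so this count is no separate support for the classes. Of the 17, 7 were higher, 2 were lower and 8 were not called in this direct test. Of all 36 genes, 17 were higher in PPARα-/- than in CREB3L3-/- mice, against 9.38% of all genes, and 4 were lower, against 13.3%. Among the genes with a mean of at least 8 these shares were 26.6% and 13.6%.

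F5, the most significant of the higher genes, differed between the single knockouts by 1.36 ± 0.16 (adjusted p = 1.82e-07), F13b by 2.12 ± 0.26 (adjusted p = 4.59e-07) and F12 by 1.57 ± 0.19 (adjusted p = 4.76e-07). F11 differed the other way, by -1.47 ± 0.16 (adjusted p = 1.04e-07), as did Cfb by -0.79 ± 0.12 (adjusted p = 9.23e-06) and Fgl1 by -0.91 ± 0.20 (adjusted p = 0.000875). F13a1 was called lower too (adjusted p = 4.44e-05), with no size given because its level in PPARα-/- mice, 4.08 to 4.21, was near the array median. The PPARα-/- values of F11 and Cfb lay below every CREB3L3-/- value. The calls of F9 and Hc were lost in 5 of 7 fits without 1 array. With only the arrays of these groups 6 genes were called, F13b, F5, F7 and Masp1 higher and F11 and F13a1 lower, against 4.54% and 8.55% of all genes.

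**Figure D3:**
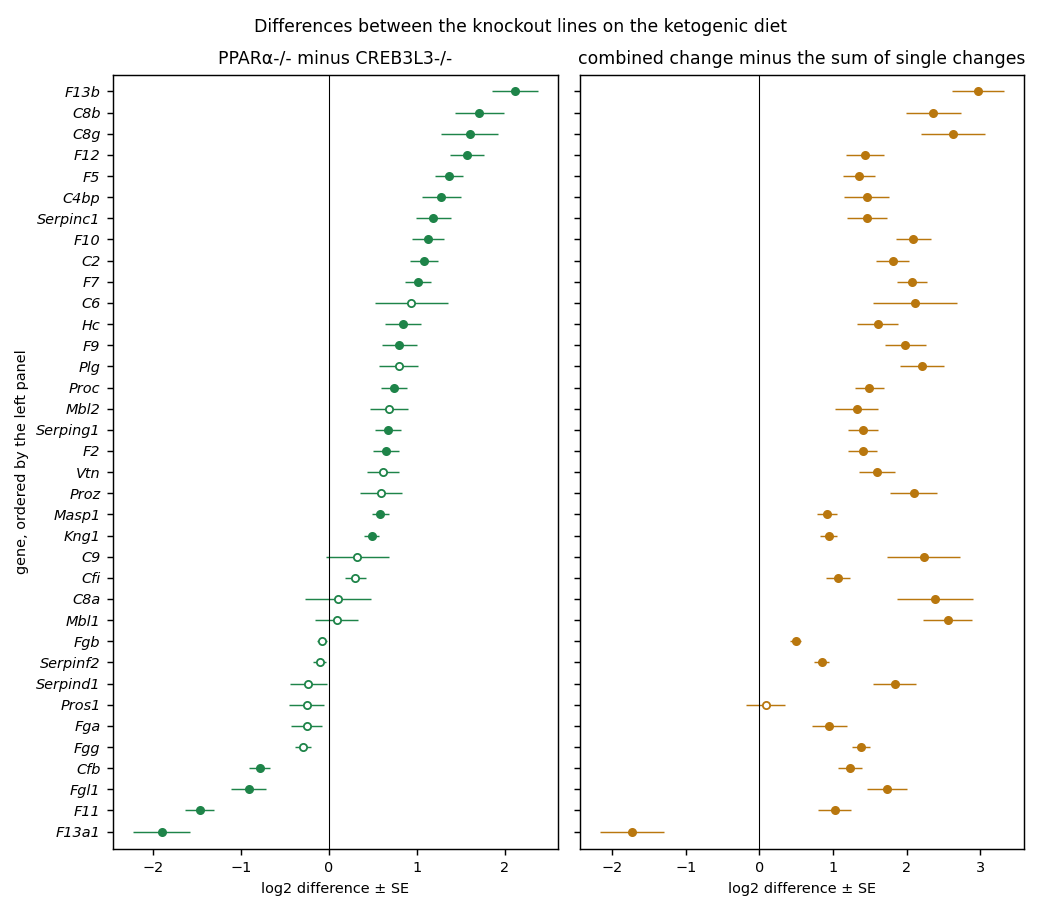
Fitted log2 differences with SE bars for 36 genes on the ketogenic diet, with PPARα-/- minus CREB3L3-/- mice at left and, at right, the change in PPARα/CREB3L3-/- mice minus the sum of the changes in the single knockouts; filled points were called. At left 17 genes lie above 0 and 4 below as called differences, and at right 34 above and 1 below.

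Loss of both factors changed the genes less than the single losses would add up to. The combined difference was nearer to 0 than the sum of the single differences for 36 of 36 genes. It was nearer to 0 than the difference in CREB3L3-/- mice for 29. Shares of all genes are not given for these counts, which describe the 36 genes only. The test of the departure from the sum was the interaction of the genotypes on the diet. It was positive and called for 34 genes, against 8.2% of all genes. It was negative and called for F13a1, 1 gene near the array median in 3 of the 4 groups, against 13% of all genes. The median over the 36 was 1.48. Among the well-expressed genes above, 26.4% had a positive call. Fgg had the lowest p, with an interaction of 1.38 ± 0.12 (adjusted p = 5.38e-09), followed by F7 at 2.07 ± 0.20 (adjusted p = 2e-08) and F10 at 2.09 ± 0.24 (adjusted p = 2.29e-07). F13b had the largest, 2.97 ± 0.35 (adjusted p = 3.7e-07): it read 5.97 to 7.70 in CREB3L3-/- and 8.97 to 9.44 in double knockout mice, which did not overlap. Kng1 (0.94 ± 0.11, adjusted p = 3.78e-07) and Serpinf2 (0.84 ± 0.10, adjusted p = 4.82e-07) came next. Pros1, at 0.08, was the gene without a call. The calls of C6, F13a1 and Fga were lost in 12, 11 and 8 of 15 fits that each left out 1 array, and with ketogenic arrays only 27 genes had a positive call, against 6.42% of all genes.

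Compared directly with CREB3L3-/- mice, double knockout mice had 18 higher genes, against 10.6% of all genes, and 2 lower genes, against 17.2%. Among the genes with a mean of at least 8 these shares were 27.5% and 21.3%. The higher genes with the lowest p were F13b (2.48 ± 0.24, adjusted p = 5.62e-09), C2 (1.41 ± 0.15, adjusted p = 3.61e-08), F5 (1.33 ± 0.15, adjusted p = 4.8e-08), Kng1, F12 and F7. The lower ones were F11 (-0.76 ± 0.15, adjusted p = 0.000265) and F13a1 (adjusted p = 3.18e-05), whose mean in double knockout mice, 4.29, was near the array median, so that no size is given. With only the arrays of these groups 7 genes were higher and 2 lower, against 6.12% and 11.5% of all genes.

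Compared with PPARα-/- mice, double knockout mice had 4 higher genes, against 1.07% of all genes, and these were the 3 fibrinogen chains and F11. Fgg read 12.41, 12.25, 12.82 and 12.58 in double knockout and 11.82, 11.77 and 11.72 in PPARα-/- mice, without overlap, a difference of 0.74 ± 0.09 (adjusted p = 4.65e-05). Fgb differed by 0.31 ± 0.06 (adjusted p = 0.00333) and F11 by 0.71 ± 0.16 (adjusted p = 0.0172), a call lost without PPARα-/- replicate 3 or without double knockout replicate 2. Fga read 10.48, 10.49, 11.67 and 10.90 in the double knockout, where replicate 3 stood above the rest, and 9.98, 10.16 and 10.21 in PPARα-/- mice, a difference of 0.76 ± 0.18 (adjusted p = 0.0173) whose call was lost without PPARα-/- replicate 1. With only the arrays of these groups Fgb, Fgg and Plg were called higher, against 0.351% of all genes, and Fga and F11 were not. With ketogenic arrays only, F11, Fgb and Fgg were called higher, against 0.553% of all genes, and Fga was not.

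The difference between regimens was tested directly as the change of each knockout effect from the fasted state to the diet. The effect of CREB3L3 loss was lower on the diet for 30 of 36 genes, against 8.3% of all genes and 27.3% of those with a mean of at least 8, and higher for F13a1, against 10.6% of all genes. F7 changed by -1.92 ± 0.19 (adjusted p = 4.58e-08), F10 by -2.05 ± 0.23 (adjusted p = 2.62e-07), Masp1 by -1.01 ± 0.13 (adjusted p = 1.28e-06) and Mbl1 by -2.53 ± 0.32 (adjusted p = 1.33e-06). No size is given for F13a1 (adjusted p = 0.00121), which was near the array median in 3 of the 4 groups of this contrast. The effect of PPARα loss was lower on the diet for 16 genes, against 2.82% of all genes and 7.37% of those with a mean of at least 8, with F11 (-2.38 ± 0.23, adjusted p = 2.99e-07) and Cfb (-1.60 ± 0.17, adjusted p = 6.97e-07) having the lowest p. The effect of the double loss was lower for 17 genes, against 6.36% of all genes and 15.3% of those with a mean of at least 8, again with Cfb (-1.36 ± 0.16, adjusted p = 6.13e-07) and F11 (-1.70 ± 0.22, adjusted p = 2.68e-06) at the lowest p. With only the arrays of the groups concerned the last 2 counts were 29 and 26, all lower, against 2.99% and 5.57% of all genes. The ketogenic mice were fed and the fasted mice were not, so diet and feeding state cannot be told apart in these tests.

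Promoter windows from RefSeq (build GRCm38.p6, 250 bases before to 50 bases after the start of each gene) were matched by symbol to 31 of the 40 genes, with 33 windows in all because C8g and F13a1 have more than 1. The windows were searched on both strands for motifs of liver transcription factors. The HNF1 motif GTTAAT occurred in 10 of the 33 windows (30.3%) and in 7.1% of all 32851 windows, and the C/EBP motif TTNNGCAA in 9 of 33 (27.3%) and 10.8% of all. The STAT motif TTCNNNGAA occurred in 7 of 33 (21.2%) and 8.3% of all windows. The cyclic AMP response element TGACGTCA occurred in 1 of 33 (3.03%), that of Cpb2, and in 1.79% of all windows. The variants CAAAGTCCA (HNF4), TTGCGCAA (the C/EBP palindrome, contained in the motif above), TGACGTGG (resembling the unfolded protein response element) and the PPAR response element were in 0 of these 33 windows and in 0.475%, 0.183%, 0.676% and 0.0396% of all windows. Below are the 250 bases before the start site for 7 genes that carry the patterns described above. On the diet C8a and C9 were lower in all 3 lines, F13b in CREB3L3-/- mice and F11 with PPARα loss. Of the fibrinogen genes, Fga and Fgb were called in neither CREB3L3-/- nor double knockout mice against wild-type on the diet. Fgg, whose window is not printed, was called lower in CREB3L3-/- mice. F9 has a C/EBP and a STAT match. Each is written 5′ to 3′ on the strand of its gene, with HNF1, C/EBP and STAT matches in capitals.
C8a (chr4:104876399-104876648, minus strand): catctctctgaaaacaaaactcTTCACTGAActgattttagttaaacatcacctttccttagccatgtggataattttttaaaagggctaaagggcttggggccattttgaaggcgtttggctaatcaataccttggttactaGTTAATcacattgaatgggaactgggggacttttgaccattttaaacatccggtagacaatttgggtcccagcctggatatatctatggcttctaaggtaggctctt
C9 (chr15:6445096-6445345, plus strand): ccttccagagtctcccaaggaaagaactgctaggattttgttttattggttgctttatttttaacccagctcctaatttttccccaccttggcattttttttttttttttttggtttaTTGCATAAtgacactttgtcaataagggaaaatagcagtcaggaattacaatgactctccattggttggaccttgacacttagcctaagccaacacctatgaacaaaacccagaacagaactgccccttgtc
F13b (chr1:139501457-139501706, plus strand): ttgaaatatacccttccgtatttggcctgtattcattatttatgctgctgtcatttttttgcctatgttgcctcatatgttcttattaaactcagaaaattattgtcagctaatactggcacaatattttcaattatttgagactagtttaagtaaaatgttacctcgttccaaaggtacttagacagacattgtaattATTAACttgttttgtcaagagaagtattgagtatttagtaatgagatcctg
F9 (chrX:59999214-59999463, plus strand): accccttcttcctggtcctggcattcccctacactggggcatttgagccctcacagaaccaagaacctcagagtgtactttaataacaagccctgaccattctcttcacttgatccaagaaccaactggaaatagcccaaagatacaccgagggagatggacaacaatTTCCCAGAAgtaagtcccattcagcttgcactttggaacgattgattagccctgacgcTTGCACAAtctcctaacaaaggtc
F11 (chr8:45262032-45262281, minus strand): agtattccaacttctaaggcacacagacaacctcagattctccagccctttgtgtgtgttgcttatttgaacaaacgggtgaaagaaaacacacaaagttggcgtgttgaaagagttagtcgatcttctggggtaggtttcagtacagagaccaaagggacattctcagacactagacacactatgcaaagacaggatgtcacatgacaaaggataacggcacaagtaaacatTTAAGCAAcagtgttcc
Fga (chr3:83025903-83026152, plus strand): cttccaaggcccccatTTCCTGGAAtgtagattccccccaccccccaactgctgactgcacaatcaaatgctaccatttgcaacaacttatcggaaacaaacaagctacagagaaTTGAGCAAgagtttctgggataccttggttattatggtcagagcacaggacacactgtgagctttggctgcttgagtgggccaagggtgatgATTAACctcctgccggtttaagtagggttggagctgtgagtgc
Fgb (chr3:83049864-83050113, minus strand): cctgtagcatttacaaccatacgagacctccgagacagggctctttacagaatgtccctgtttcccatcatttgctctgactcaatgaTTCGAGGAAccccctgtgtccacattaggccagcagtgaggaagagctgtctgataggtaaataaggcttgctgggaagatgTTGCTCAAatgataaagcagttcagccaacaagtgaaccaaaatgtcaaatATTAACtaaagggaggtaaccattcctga

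Fga and Fgb each hold all 3 motifs, with HNF1 at positions -43 and -29 counted from the start site. The window of Fgg, the other fibrinogen gene, holds none of the 3 motifs. F13b holds HNF1 alone, at -51, and C8a holds it at -107. C9 and F11 hold a C/EBP match and no HNF1 or STAT match in the window. A match describes the letters of the window and is no measure of binding.

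Other genes of the same pathways moved in both directions on the diet. Over all genes, 11.9% were lower and 16.7% higher in CREB3L3-/- livers, 7.15% lower in PPARα-/- and 10.3% lower in double knockout livers. Of the 18820 genes, 1213 were higher in PPARα-/- and 1400 in double knockout livers. Of 27 further complement genes measured, 11 were lower and 8 higher in CREB3L3-/- livers, 9 lower and 1 higher in PPARα-/- livers, and 9 lower and 2 higher in the double knockout. The lowest p in CREB3L3-/- livers belonged to Cpn2 (-2.48), a subunit of the carboxypeptidase that inactivates anaphylatoxins, and to C1rl (-1.67) and C1ra (-1.58), proteases of the C1r family. Of 24 further coagulation genes, 7 were lower and 7 higher in CREB3L3-/- livers, 1 lower and 2 higher in PPARα-/- livers and 3 lower and 1 higher in the double knockout. The PPARα-/- and double knockout counts of this list are near the shares of all genes. Plat, tissue plasminogen activator, rose by 4.65 and Plaur, the urokinase receptor, by 2.70, whereas Hrg, a hepatocyte protein that binds heparin and plasminogen, fell, with a difference of -2.46. Vitamin K recycling and factor secretion had 4 of 6 genes lower in CREB3L3-/- livers, including Vkorc1, the epoxide reductase inhibited by warfarin (-1.62). Ggcx, the carboxylase that uses vitamin K, was lower in CREB3L3-/- (-0.81), PPARα-/- (-0.80) and double knockout livers (-0.997).

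Of 15 hepatocyte transcription factors, 7 were lower in CREB3L3-/-, 6 in PPARα-/- and 7 in double knockout livers on the diet. The shares of all genes called lower were 11.9%, 7.15% and 10.3%. The list includes the deleted genes, which are low by genotype. Cebpa differed by -1.84, -1.04 and -1.30 and Hnf4a by -0.30, -0.46 and -0.56 in these lines, all called. Of 23 acute phase genes outside the set, 10 were lower and 2 higher in CREB3L3-/- livers, 9 lower in PPARα-/- and 7 lower and 3 higher in double knockout livers on the diet. In fasted PPARα-/- mice 8 of 23 were higher, against 3.11% of all genes, among them Apcs (2.23), serum amyloid P, and Lcn2 (2.91), lipocalin 2.

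Markers of several liver cell types also differed on the diet. Of all genes, 11.9% were lower and 16.7% higher in CREB3L3-/- livers. In PPARα-/- livers 7.15% of all genes were lower, and in double knockout livers 10.3%. Of 8 hepatocyte markers, 6 were lower in CREB3L3-/- mice on the diet, with a median difference of -0.82, against 3 of 8 in PPARα-/- and 3 of 8 in double knockout mice, with medians of -0.23 and -0.13. Their mean on each array was 11.88, 10.74, 11.03 and 11.52 in CREB3L3-/- mice and 12.47 to 12.61 in wild-type mice on the diet. The mean of the 36 coagulation and complement genes on the same 4 CREB3L3-/- arrays was 10.15, 9.08, 9.23 and 9.63, and lay between 10.87 and 10.94 in wild-type mice. The arrays fell in the same order on both means. Dividing-cell markers were all higher in CREB3L3-/- livers, 9 of 9, with a mean of 7.43 to 8.72. The mean was 3.47 to 4.75 in wild-type mice on the diet, around the array medians. In the other knockout mice on the diet it was 3.29 to 3.61, below every array median. At such levels a signal is hard to tell from background, so the size of this difference is not exact. Macrophage markers were higher in CREB3L3-/- livers for 7 of 12 genes (mean 8.30 to 8.60 against 7.19 to 7.84 in wild-type mice) and lower in PPARα-/- livers for 8 and in double knockout livers for 7. Stellate cell markers were higher for 7 of 12 and cholangiocyte markers for 3 of 6 in CREB3L3-/- livers. Sinusoidal endothelial markers were higher for 3 and lower for 1 of 11 in CREB3L3-/- livers and lower for 9 in the double knockout. Neutrophil markers were higher for 2 of 11, with 9 below the array median, and platelet markers for 1 of 6, with 4 below it. Both counts are near the 16.7% of all genes called higher in CREB3L3-/- livers. T and NK cell markers (10 of 10) and B cell markers (7 of 7) lay below the array median over all arrays. The part of these cell types in the changes of the coagulation and complement genes was not tested.

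**Figure D4:**
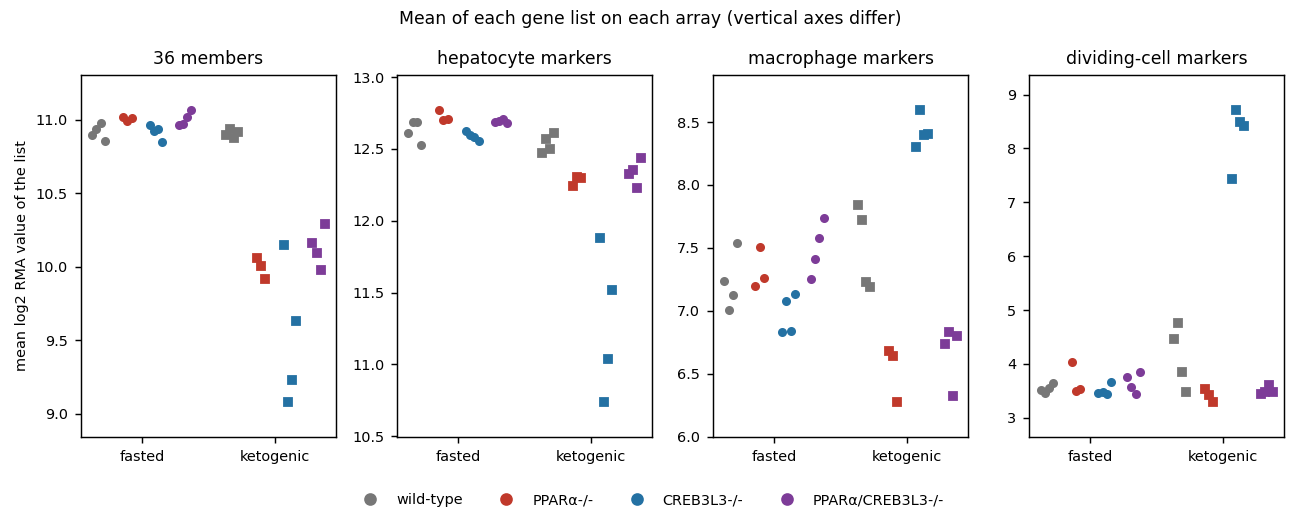
Mean log2 RMA value on each array of the 36 coagulation and complement genes and of the hepatocyte, macrophage and dividing-cell marker lists (vertical axes differ), with circles for fasted and squares for ketogenic mice and colours for the 4 lines. CREB3L3-/- mice on the diet spread from 9.08 to 10.15 on the first mean and from 10.74 to 11.88 on the second, and stand above all other mice on the last 2.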

How the data were processed

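Liver RNA of 30 mice was hybridised to Affymetrix Mouse Gene 1.1 ST arrays, 1 mouse per array. The authors deposited log2 expression values of 35556 probe sets, normalized together by RMA; per the labels and methods no version is given. The methods describe a remapped probe set definition, whereas the deposited rows carry the manufacturer's transcript cluster identifiers, so genes were named from the probe-to-gene table of the platform. It gives 1 symbol to 21218 probe sets, several to 1881 and none to 12457. The methods and the labels also name different labelling kits. All value columns were used. The number of mice limits the precision.

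Log2 values were fitted in limma 3.58.1 (R 4.3.3, tables read with version 1.17.8 of data.table) with a mean for each of the 8 groups and an intensity trend in the variance. Contrasts were called at an unadjusted P under 0.001 and a change beyond 1.2-fold, after the methods' threshold, and p-values were adjusted by Benjamini-Hochberg over all probe sets. The fit was tested on simulated data in which each gene had the same spread in all groups. That test does not cover the wider spread of CREB3L3-/- mice on the diet. Up to 6 genes per comparison and direction, by lowest P, have full statistics, and up to 3 genes per other list are named. The genes and lists were chosen with earlier results of these data known. PPARα-/- against CREB3L3-/- mice and the changes of the PPARα and double knockout effects between regimens were added after the data were seen. Percentages beside counts are shares of 18820 genes, each on its brightest probe set. Alternatives covered the threshold, scaling, variance trend, array weights, dim probe sets, probe set choice, arrays in the fit, a replicate block and leaving out single arrays. Promoters came from RefSeq (GRCm38.p6). Figures were drawn with matplotlib 3.10.9 in Python 3.11.15. The p-values rest on 1 spread per gene, pooled over the mice of all 8 groups. The median SD was 0.57 in CREB3L3-/- mice on the diet and 0.07 to 0.17 in the other groups. The p-values thus tend to be too small in contrasts with that group and too large in the others.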

Additional observations from a re-analysis of the deposited data

Results flagged for a closer look

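In 17 of 216 combinations of a gene and a group of 4 mice, 1 mouse lay far from the other three by Dixon's test, and chance alone flags about 1 in 20 groups. In fasted double knockout mice replicate 4 was the high one for C2 (9.50), F7 (10.17), F9 (10.91) and Kng1 (12.24). In double knockout mice on the diet replicate 3 was low for Hc (9.99) and Proz (8.46), and replicate 4 high for Mbl2 (9.91). In fasted CREB3L3-/- mice replicate 4 was low for C6 (9.81) and C9 (10.39), replicate 2 low for Serpinf2 (11.49) and replicate 1 high for C4bp (11.49). In CREB3L3-/- mice on the diet replicate 4 was high for Serpinf2 (11.54). In fasted wild-type mice replicate 4 was high for Cfb (11.80) and low for Fgb (12.87), replicate 2 low for F12 (11.46) and replicate 1 low for Serpinc1 (12.15). In wild-type mice on the diet replicate 1 was low for C4bp (11.20).

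Effects that differed between groups by limma's test of the difference itself were found for 35 genes in the interaction of the genotypes on the diet. Between the regimens the effect of CREB3L3 loss differed for 31 genes, that of PPARα loss for 16 and that of the double loss for 17.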

How the results depend on the processing

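Of 222 called differences, each a gene in a comparison, 0 changed sign under any setting. Fits on fewer arrays moved the counts most. With only the arrays of the groups compared, 179 calls were kept, and the counts were 6 in fasted PPARα-/- mice (1 with all arrays), 1 in fasted CREB3L3-/- mice (0), 7 in fasted double knockout mice (3), 1 for CREB3L3 loss without PPARα in the fasted state (0), 2 for wild-type mice between regimens (0), 9 for PPARα loss without CREB3L3 on the diet (20), 6 between the single knockouts on the diet (21), and 29 and 26 for the change of the PPARα and double knockout effects between regimens (16 and 17). With only the arrays of 1 regimen, 126 of 158 calls were kept, and the counts were 6 and 7 in fasted PPARα-/- and double knockout mice, 2 and 5 for CREB3L3 loss and PPARα loss without the other factor in the fasted state (0 and 2), and 13 in PPARα-/- mice on the diet (21). In fasted PPARα-/- mice, 4 genes passed an adjusted p under 0.05 with the fold criterion, 5 without it, 3 with array weights and 2 after a repeated quantile normalization. Array weights gave 1 for CREB3L3 loss without PPARα in the fasted state, median centring and a fit without trend each gave 1 for PPARα loss without CREB3L3, and wild-type mice between regimens had 1 after median centring or by adjusted p alone. The cause of these moves was not tested.

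Leaving out 1 array at a time, the counts ranged from 1 to 2 in fasted PPARα-/- mice, 0 to 1 for CREB3L3 loss without PPARα and 1 to 3 for PPARα loss without CREB3L3 in the fasted state, and 0 to 1 for wild-type mice between regimens. On the diet they ranged from 19 to 22 in PPARα-/- and 17 to 20 in double knockout mice, and stayed at 32 in CREB3L3-/- mice. The replicate numbers did not pair the mice: same-numbered mice of different groups deviated together with correlations of -0.11 to 0.12 over 99 pairs. With the replicate number as a block, 221 of 222 calls were kept, and the counts on the diet were 21, 32 and 19 in PPARα-/-, CREB3L3-/- and double knockout mice and 34 for the interaction.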
